A study of Rattus norvegicus with 3 samples.

Results

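The 9 genes described here mark the osteogenic lineage from its progenitors to the osteocyte: Runx2 and Sp7 for progenitors, Alpl, Ibsp, Bglap and Ifitm5 for osteoblasts, and Dmp1, Phex and Mepe for osteocytes. They were taken by name, and all 9 were found among the 21633 gene identifiers of the tables. The tissue was rat condylar cartilage with its subchondral bone, from SD rats (Sprague Dawley is the usual reading) kept in an SPF environment. All rats were wild type and had an AAV (adeno-associated virus) injected into the temporomandibular joint. The sham group received Vector AAV and no unilateral anterior crossbite (UAC), a dental appliance model that loads the joint. The UAC group received Vector AAV, and the UAC + miR-330 group received UAC and an AAV carrying miR-330. The labels call the last library the treatment group only, and its agent was taken from the series design. The 24 rats were divided into 3 groups, and the 16 condyles of a group were mixed into 1 single-cell library, so each group had n = 1 and rats could not be told apart.

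Sequencing depth was 77668015 UMIs (unique molecular identifiers, each marking 1 captured RNA molecule) in 15 clusters for sham, 92629658 in 18 clusters for UAC and 97255383 in 19 clusters for UAC + miR-330. Levels are counts per 1000000, written CPM, that is a gene's part of every 1000000 UMIs in a library or cluster, and brackets hold the exact Poisson 95% interval. A 3′ method counts a molecule once whatever its length, so levels of different genes need no correction for length. Other differences in capture between genes were not assessed. Ratios have an exact conditional binomial 95% interval. All these intervals cover counting error only, not the spread between rats or libraries, and no test between groups was possible. A gene is said to have risen or fallen where its CPM ratio, with 0.5 UMI added to each count, was at least 1.5-fold and the 2 libraries together held at least 50 UMIs. All 9 genes passed this minimum in both comparisons, over all clusters and in the cluster described next.

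Bone forms when mesenchymal progenitors switch on Runx2 and then Sp7, the transcription factors that commit a cell to the osteoblast. Osteoblasts secrete type I collagen and non-collagenous proteins, supply phosphate for mineral through alkaline phosphatase, and in part become osteocytes as the matrix closes around them. Osteocytes produce Dmp1, Phex and Mepe, which act in mineralisation and phosphate balance. In the mandibular condyle this bone lies directly under a cartilage whose deep layer of hypertrophic chondrocytes also uses Runx2, Alpl and Ibsp.

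The cluster used was chosen by its chondrocyte markers, so their enrichment in it follows from the choice. In each library 1 cluster held nearly all UMIs of these markers, 96.6%, 95.3% and 94.2% in sham, UAC and UAC + miR-330. It was cluster 12, 16 and 17, and a marker counted as enriched in it with at least 10 UMIs and a log2 ratio of at least 1 to the other clusters of its library. Of 20 chondrocyte markers 18, 17 and 18 were enriched there, and of the 9 osteogenic markers that are not among the genes described, 8 were enriched in each library. Fibroblast markers were enriched as well, 8, 7 and 8 of 12. Markers of bone and cartilage cells were thus not separated, and this cluster is called the osteochondral cluster. It held 95.9%, 92.4% and 89.6% of all UMIs of the 9 genes. The osteocyte name rests on Dmp1, Phex and Mepe alone, since Sost and Dkk1 were not listed and Fgf23 had 0, 0 and 1 UMIs in the cluster. Cells cannot be counted from these tables, and fewer cells and less RNA per cell cannot be told apart.

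The 9 genes did not move as a block. In the osteochondral cluster, from sham to UAC, the osteocyte genes Dmp1 and Mepe rose, the osteoblast genes Alpl and Ifitm5 and the osteocyte gene Phex fell, and Runx2, Sp7, Ibsp and Bglap stayed under the fold. From UAC to UAC + miR-330 both progenitor genes rose together with Alpl, Ibsp and Phex, and Dmp1 fell. With the mixed clusters described below added, an alternative chosen after seeing the data, none of the 3 falls with UAC was called, with Alpl at −0.57, Ifitm5 at −0.47 and Phex at −0.42. With miR-330 only Phex of the 5 genes stayed higher under it, Runx2 was at 0.21, Sp7 at 0.29, Alpl at 0.13 and Ibsp at 0.50, and Bglap, at −0.95, was called lower beside Dmp1. Of all genes 3.80% were lower with UAC under it, and 9.32% higher and 15.8% lower with miR-330. The added clusters enlarge the total of sham and of UAC + miR-330 but not that of UAC. Through these totals alone every log2 ratio shifts by 0.23 with UAC and by −0.57 with miR-330. The fall of Phex with UAC was not called with 5 UMIs added to each count. The first comparison thus had 2 of 9 genes higher, where 10.5% of all 10052 genes tested were higher, and 3 of 9 lower, where 1.61% of all genes were lower. The second had 5 of 9 higher against 8.48% of 9798 genes, and 1 of 9 lower against 8.01%. The median log2 ratio of the 9 genes was 0.05 with UAC and 0.67 with miR-330, beside 0.14 and 0.02 for all genes tested. The genes were chosen for their roles with earlier results of these data known, and the counts are a description.

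**Figure D1:**
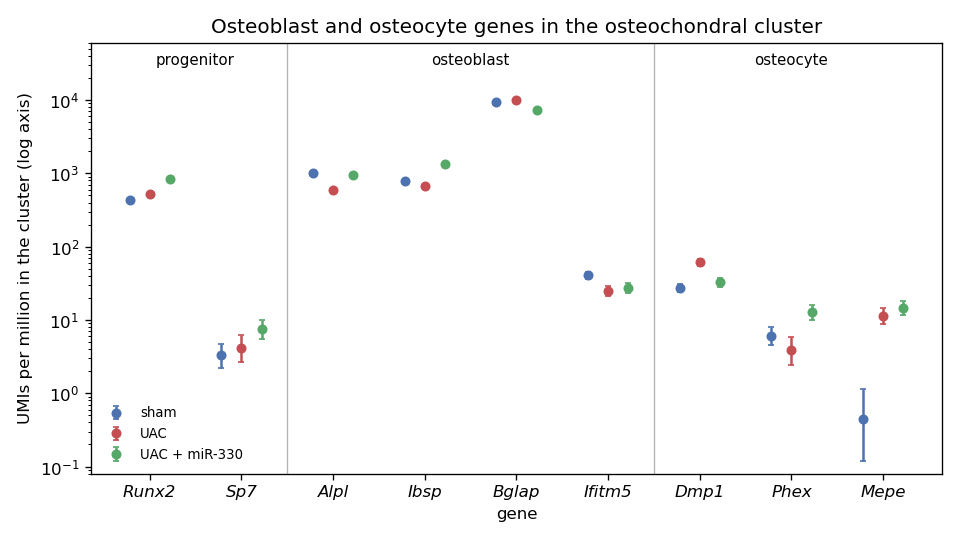
Level of each gene in the osteochondral cluster of each library (colours), in CPM on a log axis, ordered by stage; points are values of 1 library each and bars exact Poisson 95% intervals. Bglap lies far above the other genes, at 9537 in sham, and Mepe is at 0.44 in sham against 11.4 and 14.6 in the other libraries.

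Runx2 (ENSRNOG00000020193), the master transcription factor of the osteoblast lineage, was at 435 CPM (421 to 449) in the osteochondral cluster of sham, 517 (499 to 535) in UAC and 839 (816 to 863) in UAC + miR-330. The 3 intervals do not overlap, and the order was sham, UAC, UAC + miR-330. The log2 ratio was 0.25 (0.18 to 0.32) with UAC, under the fold, and 0.70 (0.63 to 0.77) with miR-330, a 1.62-fold rise. Among all genes of the cluster by level, Runx2 stood at rank 299, 260 and 160. Sp7 (ENSRNOG00000014082), which acts downstream of Runx2, was far scarcer, with 30, 25 and 44 UMIs. Its level was 3.33 CPM (2.24 to 4.75), 4.18 (2.71 to 6.17) and 7.48 (5.43 to 10.0). Sham and UAC could not be told apart at this depth, and the rise with miR-330 was 0.83 on the log2 scale (0.10 to 1.61), an interval that reaches below the fold. Both progenitor genes were thus highest in the UAC + miR-330 library, and their summed level had log2 ratios of 0.25 (0.18 to 0.32) and 0.70 (0.64 to 0.77).

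Alpl (ENSRNOG00000013954) encodes tissue-nonspecific alkaline phosphatase, which frees phosphate for mineral. In the osteochondral cluster it was at 1015 CPM (995 to 1036) in sham, 591 (571 to 610.4) in UAC and 939.8 (915 to 965) in UAC + miR-330. It was lowest in UAC, with a fall of −0.78 (−0.84 to −0.73) on the log2 scale and a rise of 0.67 (0.61 to 0.73). In CPM the level with miR-330 lay below that of sham. On the deposited mean counts the ratios of Alpl were −0.59 and 0.91, and there the level with miR-330 lay above that of sham. Ibsp (ENSRNOG00000002158), bone sialoprotein, which nucleates hydroxyapatite, was at 778 CPM (760.0 to 796), 678 (658 to 699) and 1357 (1327 to 1387). Its log2 ratio with UAC was −0.20 (−0.25 to −0.14), and it doubled with miR-330, at 1.00 (0.95 to 1.06), to a level above that of sham. Ibsp moved from rank 181 and 199 in sham and UAC to rank 95.

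Bglap (ENSRNOG00000019607) encodes osteocalcin, the vitamin K-dependent protein of mature osteoblasts. It was among the most abundant RNAs of the cluster, at rank 6, 5 and 6, with 86026, 59061 and 43508 UMIs. Its level was 9537 CPM (9474 to 9601) in sham, 9876 (9797 to 9956) in UAC and 7393 (7323 to 7462) in UAC + miR-330. The log2 ratio with UAC was 0.05 (0.04 to 0.07), which is −0.08 when centred on the median of all genes. With miR-330 it was −0.42 (−0.44 to −0.40), under the fold, and opposite in sign to Alpl and Ibsp, while with the mixed clusters added it was −0.95, past the fold. Ifitm5 (ENSRNOG00000014923), a membrane protein of mineralising osteoblasts, was at 40.5 CPM (36.4 to 44.8), 25.1 (21.2 to 29.4) and 27.4 (23.3 to 31.9). It fell with UAC by 0.69 on the log2 scale (−0.97 to −0.41), and the UAC and UAC + miR-330 values overlap, at 0.12 (−0.20 to 0.46), or −0.41 with the mixed clusters added.

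The proportions of these genes to Bglap differed between the libraries. Bglap was 80.5% of the UMIs of the 9 genes in the sham cluster, 83.9% in UAC and 69.6% in UAC + miR-330. For every 100 Bglap UMIs there were 8.16, 6.87 and 18.4 of Ibsp, 10.6, 5.98 and 12.7 of Alpl, 0.42, 0.25 and 0.37 of Ifitm5, and 4.56, 5.23 and 11.4 of Runx2. Such ratios inside 1 cluster do not depend on its total. The summed level of the 9 genes, which Bglap dominates, was 11843, 11767 and 10623 CPM, with log2 ratios of −0.01 (−0.02 to 0.00) and −0.15 (−0.16 to −0.13). Without Bglap the sum was 2305, 1891 and 3231 CPM, with log2 ratios of −0.29 (−0.32 to −0.25) and 0.77 (0.74 to 0.81). The sign of the summed ratio with miR-330 thus differed with and without Bglap, and with Bglap it was positive on the deposited mean counts, at 0.088.

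Dmp1 (ENSRNOG00000002167), a matrix phosphoprotein of osteocytes, was at 27.1 CPM (23.8 to 30.7) in the sham cluster, 61.2 (55.1 to 67.8) in UAC and 32.8 (28.3 to 37.8) in UAC + miR-330. UAC stood apart from the other libraries, whose intervals overlap. The rise was 1.18 on the log2 scale (0.94 to 1.42), or 2.26-fold, and the fall with miR-330 was −0.90 (−1.16 to −0.64). Phex (ENSRNOG00000023440), the endopeptidase whose loss causes X-linked hypophosphataemia, had 55, 23 and 75 UMIs. Its level was 6.10 CPM (4.59 to 7.94), 3.85 (2.44 to 5.77) and 12.7 (10.0 to 16.0). The log2 ratio with UAC was −0.65 (−1.43 to 0.06), past the fold but with an interval that includes 0, and the rise with miR-330 was 1.71 (1.04 to 2.47). Mepe (ENSRNOG00000002154), which carries the ASARM peptide that inhibits mineralisation, had 4 UMIs in the sham cluster, 68 in UAC and 86 in UAC + miR-330. That is 0.44 CPM (0.12 to 1.14), 11.4 (8.83 to 14.4) and 14.6 (11.7 to 18.0), with a log2 ratio of 4.52 (3.26 to 6.60) with UAC and of 0.36 (−0.11 to 0.84) with miR-330. Sham was low and both UAC libraries were high in Mepe, whereas Dmp1 was high in UAC only and Phex was highest with miR-330. These 3 genes together were at 33.6, 76.4 and 60.2 CPM, under 1% of the UMIs of all 9 genes.

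The osteochondral cluster held 11.6%, 6.46% and 6.05% of the UMIs of the whole libraries. Over all clusters, from sham to UAC, 5 of 9 genes fell, Sp7, Alpl, Ibsp, Bglap and Ifitm5, and Mepe rose, 1 of 9. Of 14235 genes tested, 6.05% were lower and 6.97% higher. The ratio of Sp7, −0.73 (−1.54 to 0.04), has an interval that includes 0. The median of the 9 genes was −0.73, beside −0.02 for all genes. Alpl went from 125 CPM (123 to 128) to 47.0 (45.7 to 48.5), Bglap from 1142 (1134 to 1149) to 660.1 (655 to 665), and Ibsp from 94.4 (92.2 to 96.6) to 45.0 (43.7 to 46.4). The summed level had a log2 ratio of −0.80 (−0.82 to −0.79), and the cluster's share of UMIs had a log2 ratio of −0.85. Inside the cluster the same sum was at −0.01, while Alpl and Ifitm5 fell there too. Runx2 was level over the library, at 62.7 CPM (61.0 to 64.5) and 62.6 (61.0 to 64.3), with 80.5% of its UMIs in the sham cluster and 53.3% in the UAC cluster.

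From UAC to UAC + miR-330, over all clusters, Sp7, Ibsp and Phex rose, 3 of 9 genes beside 11.4% of 14485, and Dmp1 fell, 1 of 9 beside 3.67%. The median of all genes was 0.13 in this comparison and that of the 9 genes 0.42. Ibsp was at 87.7 CPM (85.8 to 89.5) with miR-330, beside 94.4 (92.2 to 96.6) in sham. Runx2 was at 83.7 (81.9 to 85.5), Alpl at 66.6 (65.0 to 68.3) and Bglap at 473 (469 to 478). Dmp1 was at 3.23, 4.23 and 2.04 CPM over the 3 libraries, and Mepe at 0.06, 0.78 and 0.89. The cluster's share of UMIs had a log2 ratio of −0.09 in this comparison.

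**Figure D2:**
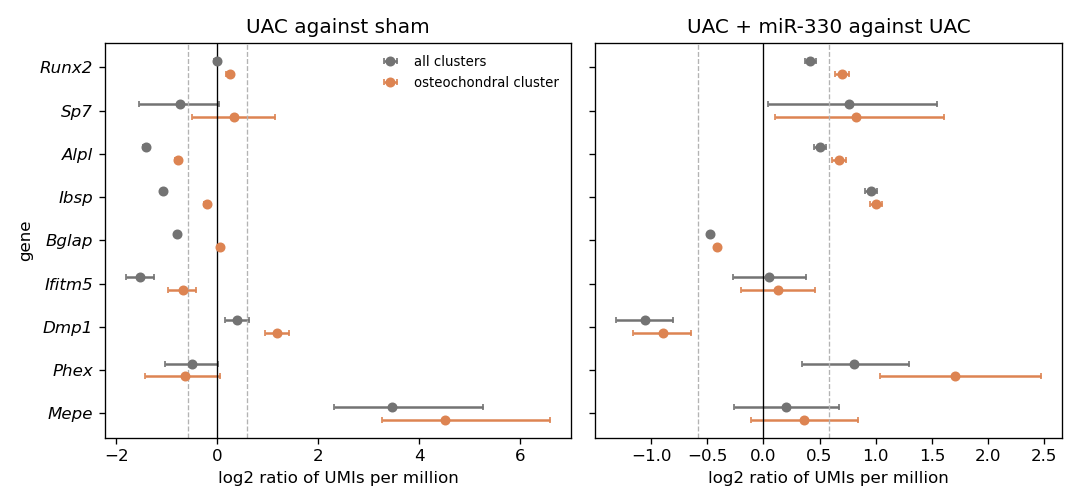
Log2 ratio of each gene between libraries, UAC against sham on the left and UAC + miR-330 against UAC on the right, over all clusters in grey and in the osteochondral cluster in orange; bars are exact conditional binomial 95% intervals and dashed lines mark 1.5-fold. On the left the grey points of 8 of 9 genes lie below their orange points, Bglap at −0.79 against 0.05, and only for Phex does the grey point lie above.

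The scale of the counts matters for genes near the fold. In the first cluster of each library the deposited means summed to 4541 in sham, 5200 in UAC and 6123.5 in UAC + miR-330. Used as each library's scale, these totals add 0.20 to every log2 ratio of the first comparison and 0.24 to those of the second. On that scale, in the osteochondral cluster, 2 genes were higher and 1 lower with UAC, where of all genes called 96.7% were higher rather than 86.7%, and 6 were higher and 1 lower with miR-330, where 83.3% rather than 51.4% were higher. Of all genes tested in the cluster 21.8% were then higher and 0.74% lower with UAC, and 20.4% and 4.10% with miR-330. Over the libraries 1 was higher and 4 lower with UAC, and 5 were higher and 1 lower with miR-330, while 77.3% and 94.3% of all called genes were higher instead of 53.5% and 75.6%. Of all genes tested there 12.0% were higher and 3.53% lower with UAC, and 28.3% and 1.70% with miR-330. Centred on the median of all genes, the share of called genes that were higher was 69.1% in the cluster with UAC and 51.6% over the libraries with miR-330. The counts of the 9 genes were then 2 higher and 3 lower, beside 6.49% and 2.89% of all genes, and 3 higher and 2 lower, beside 6.43% and 6.03%. Per UMIs of the other osteogenic markers, a scale chosen after seeing the data, 97.6% of called genes were higher in the first comparison, 26.2% of all genes were higher and 0.64% lower, and none of the 9 genes fell with UAC: Alpl was at −0.54, Ifitm5 at −0.44 and Phex at −0.40. Dmp1 and Mepe, at 1.42 and 4.77, were higher on this scale too. The scale rests mostly on Col1a1, at 57395 of 61835 CPM in sham and 46960 of 52126 in UAC.

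Markers of other cells moved with the libraries inside the osteochondral cluster, and their part in the results was not tested. Unless other clusters are named, levels and zeros here are those of this cluster and not of the whole library. The neutrophil list, 12 of 12 genes listed, summed to 1250, 4382 and 867 CPM. S100a9 was its most abundant gene in sham and UAC, at 495 and 1891 CPM, and S100a8 in UAC + miR-330, at 335, while Ltf had 0 UMIs in sham and UAC + miR-330. The endothelial list summed to 45.5 CPM in sham, with Emcn at 17.5, and to 1.00 and 0.34 in the UAC libraries. Of its 6 listed genes 5 were enriched in the sham cluster, and Cdh5, Kdr, Tek and Emcn had 0 UMIs in the cluster of both UAC libraries. Elsewhere 5 of the listed genes were enriched in cluster 15 of UAC, at 53.0 CPM, and 6 in cluster 14 of UAC + miR-330, at 130 CPM. Hypertrophic chondrocyte markers, 4 of 4, were at 1926, 1571 and 3099 CPM, led by Mef2c at 765, 779.9 and 1507. Mef2c is not specific to these cells here, with 25.5%, 14.4% and 17.2% of its UMIs in the cluster, and Col10a1 went from 232 CPM in UAC to 699 in UAC + miR-330. All 4 rose with miR-330, beside 8.48% of all genes, as did Runx2, Alpl and Ibsp, which hypertrophic chondrocytes also use. With UAC 0 of the 4 were higher and 2 lower, with a median of −0.43, beside 10.5% and 1.61% of all genes. The 2 were Ihh, from 127 to 57.5 CPM, and Pth1r, at a log2 ratio of −0.59, and Alpl fell in the same step. The chondrocyte list was at 64062, 51291 and 66480 CPM, led by Col2a1 at 27179.7, 19379 and 24344, with Matn1 at 0 in both UAC libraries. With miR-330 7 of 18 chondrocyte markers tested were higher and 0 lower, with a median of 0.51, beside 8.48% and 8.01% of all genes. With UAC 0 of 17 were higher and 1 lower, Snorc at −0.62, with a median of −0.12, beside 10.5% and 1.61%. The osteogenic markers other than the 9 genes were at 61835, 52126 and 52748 CPM, led by Col1a1, with Omd at 0 in sham. The fibroblast list was at 6208, 6162 and 4733 CPM, led by Col3a1. With UAC 3 of its 8 genes tested were higher and 0 lower, with a median of 0.51, beside 10.5% and 1.61% of all genes. With miR-330 0 of 7 were higher and 0 lower, with a median of −0.32, beside 8.48% and 8.01%. The osteoclast list was at 391, 499 and 409.8 CPM, carried by Nfatc1 and Ctsk, while Ocstamp, Dcstamp, Atp6v0d2 and Calcr had 0 UMIs in the cluster of all 3 libraries. With UAC 1 of its 4 genes tested was higher, Mmp9 at 0.76, and 0 lower, beside 10.5% and 1.61% of all genes. With miR-330 0 were higher and 2 lower, Ctsk at −0.77 and Mmp9 at −2.81, beside 8.48% and 8.01%, while Nfatc1 was at 0.25. Mmp9 is not specific to osteoclasts here, being among the most enriched genes of cluster 7 of UAC and cluster 15 of UAC + miR-330. Those clusters had 9 and 7 of 12 neutrophil markers enriched.

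Other marker lists were low in the cluster. The mural list was at 373, 365 and 406 CPM, led by Cspg4, and the B list at 369, 348 and 244, led by Ebf1. The erythroid list was at 21.4, 11.7 and 21.7, the skeletal muscle list at 24.2, 16.2 and 17.5, and the T and NK list at 5.65, 13.5 and 3.57. Dendritic markers were at 1.00, 3.51 and 4.08 CPM and mast and basophil markers at 2.11, 1.67 and 2.38.

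Outside the osteochondral cluster the genes differed in kind. Bglap was found in every cluster, with a median of 35.2, 23.3 and 14.6 CPM over the other clusters of sham, UAC and UAC + miR-330. Clusters with at least 5000 CPM of B markers held it at 31.7 (30.3 to 33.2), 24.2 (22.9 to 25.4) and 14.9 (14.0 to 15.9), or 2.78%, 3.66% and 3.15% of its library level. Ibsp stood there at 2.71%, 3.13% and 2.29% of its library level. Sp7, Ifitm5, Dmp1 and Mepe had at most 11 UMIs each in these clusters. A cluster with 8 of 9 erythroid markers enriched in sham, cluster 14, and one with 7 in UAC + miR-330, cluster 5, held more: Bglap at 311 and 408 CPM, Ibsp at 91.0 and 128. These mixed clusters also carried chondrocyte markers at 2621 and 2196 CPM, and no other cluster outside the osteochondral one reached 2000. Cluster 11 of UAC, with 7 erythroid markers enriched as well, held Bglap at 18.0 CPM and Ibsp at 2.47.

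Runx2 was different. Its share outside the osteochondral cluster was 952 of 4873 UMIs in sham, 2712 of 5802 in UAC and 3199 of 8138 in UAC + miR-330. Runx2 is also known from plasmacytoid dendritic cells and from T cells. In UAC it reached 344 CPM (320.4 to 369) in cluster 14, where 4 of 6 dendritic markers were enriched, and in UAC + miR-330 189 (174 to 205) in cluster 8, where 3 were. Dendritic markers summed to 846 and 569 CPM in these clusters, and B markers to 3585 and 4337, with 1 of 10 enriched in each. In clusters with 7 of 8 T and NK markers enriched Runx2 was at 129 (114 to 145) in UAC and 221 (202 to 241) in UAC + miR-330, where all 6 mast and basophil markers were enriched too. Clusters with 5 of 10 B markers enriched had 106 CPM in UAC, cluster 15, and 99.6 CPM in UAC + miR-330, cluster 14, but 21.1 in sham, cluster 11. The clusters with all 10 macrophage markers enriched had 96.9 (86.7 to 108), 69.2 (62.6 to 76.3) and 103 (94.9 to 111) CPM in sham, UAC and UAC + miR-330. For each 100 Bglap UMIs outside the osteochondral cluster there were 36.0, 130.1 and 126 of Runx2, against 4.56, 5.23 and 11.4 inside.

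Neutrophils are known for their alkaline phosphatase, and outside the cluster Alpl was higher in some clusters with neutrophil markers than in others. It was at 47.6 CPM (41.6 to 54.2) in cluster 10 of sham, where 8 of 12 neutrophil markers were enriched. In UAC it was at 41.7 (36.1 to 47.9) and 95.2 (85.0 to 106) in clusters 12 and 18, with 7 and 5 markers, and in UAC + miR-330 at 52.3 (46.5 to 58.6) and 86.4 (76.9 to 96.7) in clusters 9 and 18, with 7 and 6. Other clusters with 6 to 9 of these markers enriched had less, 16.1 in cluster 8 of sham, 10.6 and 9.49 in clusters 7 and 8 of UAC, and 11.5 and 16.5 in clusters 6 and 15 of UAC + miR-330. The highest value outside in sham was in the mixed cluster 14, at 63.9 (51.9 to 77.8). All of these lie far below the level of the osteochondral cluster in the same library. Phex had 39.0% of its UMIs in the osteochondral cluster of UAC (26.5 to 52.6, exact binomial), against 78.6% in sham and 68.8% in UAC + miR-330. Of its 59 UMIs in UAC 13 were in cluster 11, which passed the B marker floor but had 7 erythroid markers enriched, at 0.94 CPM (0.50 to 1.62).

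**Figure D3:**
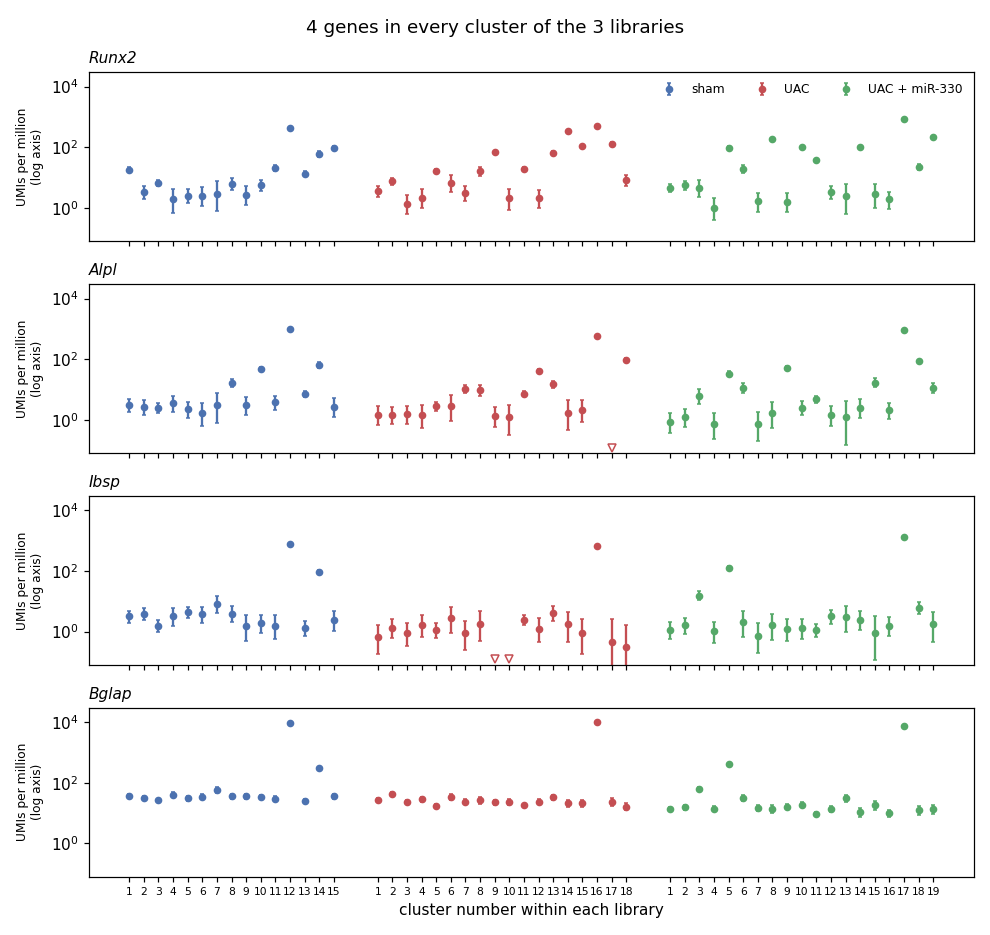
Level of Runx2, Alpl, Ibsp and Bglap in every cluster of each library, in CPM on log axes; points are cluster values, bars exact Poisson 95% intervals and open triangles at the floor of the axis mark 0 UMIs. Outside the osteochondral cluster (12, 16 and 17) and the mixed clusters (14 of sham, 5 of UAC + miR-330) Bglap lies between 9.53 and 64.0, while Runx2 reaches 344 in cluster 14 of UAC.

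Genes with related functions were followed in the osteochondral cluster in lists, whose counts are given beside the 10.5% higher and 1.61% lower of all genes with UAC, and the 8.48% and 8.01% with miR-330. Of the progenitor and transcription factor list 13 of 20 genes had enough UMIs. With UAC 4 were higher and 0 lower, with a median of 0.24, and with miR-330 0 were higher and 3 lower, with a median of −0.26. Lef1 was counted in both steps and Tcf7 among the 3 lower, though most of their UMIs lay in other clusters. The osteochondral cluster held 0.67%, 0.58% and 0.28% of Lef1 and 18.7%, 7.81% and 4.94% of Tcf7 in sham, UAC and UAC + miR-330. Pdgfrb, a receptor of perivascular progenitors, rose from 20.1 to 34.8 CPM, the largest rise, and Gli1, a hedgehog effector that marks progenitors, fell with miR-330 from 16.2 to 8.16. Atf4 was at 353, 374 and 266 CPM, and Twist1, which holds back Runx2, at 167, 212 and 151. Foxc1, with the lowest ratio under UAC, was at 60.3, 51.8 and 59.5.

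Few genes of the bone matrix list passed the fold, as was so for all genes. Its summed level had a log2 ratio of −0.28 with UAC, with Sparc at −0.37 and Col1a1 at −0.29, and of 0.04 with miR-330. Of 17 genes tested of 19, 1 was higher and 0 lower with UAC, and 1 higher and 1 lower with miR-330, with medians of −0.09 and −0.03. Col1a1, the main collagen of bone, was at 57395, 46960.0 and 49062 CPM, and Sparc, osteonectin, at 36634, 28315 and 29757. Spp1, osteopontin, rose with UAC from 1542 to 2573 CPM and was at 1914 with miR-330. Col24a1, a minor fibrillar collagen of bone, rose with miR-330 from 105 to 258, and Col1a2 fell from 1927 to 1173.

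Of the mineral and phosphate list 14 of 15 genes were tested. With UAC 1 was higher and 0 lower (median 0.05), and with miR-330 3 were higher and 0 lower (median 0.10). Those 3 were Smpd3, a sphingomyelinase needed for mineralisation, at 836, 611 and 1041 CPM, Slc8a3, a sodium-calcium exchanger, at 528, 452 and 824, and Phospho1, the phosphatase of matrix vesicles, at 246, 199.8 and 303. All 3 had the order of Ibsp, lowest in UAC and highest with miR-330. Fam20a, which aids the kinase of secreted phosphoproteins, rose with UAC from 7.65 to 18.1 CPM. Mgp, an inhibitor of mineral, was at 1146, 1095 and 1037, Anxa2 at 602, 654 and 564, and Slc20a1, a phosphate carrier, at 124, 136 and 100.2.

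Ibsp, Dmp1 and Mepe belong with Spp1 and Dspp to a family of secreted acidic phosphoproteins, and in the rat assembly GRCr8 Spp1, Mepe, Ibsp, Dmp1 and Dspp follow each other as neighbouring protein-coding genes. Dspp was not listed and was not analysed here. With UAC 3 of the 4 others rose, Spp1, Dmp1 and Mepe, at log2 ratios of 0.74, 1.18 and 4.52, and Ibsp was at −0.20, or 0.05 per UMIs of the other osteogenic markers. With miR-330 Ibsp rose, Dmp1 fell, and Spp1 and Mepe were at −0.43 and 0.36. The family medians were 0.96 and −0.03. Neighbouring genes of this run therefore differed from each other in both comparisons.

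Of the osteocyte context list 9 of 12 genes were tested, with 1 higher and 0 lower in each comparison and medians of 0.32 and 0.16. Mmp14, a membrane metalloproteinase needed for osteocyte processes, rose with UAC from 68.4 to 113 CPM and was at 114 with miR-330. Fbln7 was at 11.6, 7.86 and 13.8 CPM, and its ratio of 0.80 with miR-330 was the rise of that step. Dstn was at 423, 542 and 432, Gja1, the gap junction protein connexin 43 of osteocytes, at 258 and 335 in sham and UAC with a further log2 ratio of 0.16 with miR-330, and Cd44 at 111, 154 and 122. Pdpn, an early osteocyte gene, was at 82.9, 104 and 77.7 CPM.

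Of the receptor and effector list 17 of 21 genes were tested with UAC, 2 higher and 2 lower (median 0.31), and 15 with miR-330, 2 higher and 0 lower (median 0.19). Pth1r, the receptor of parathyroid hormone and of its related peptide, was at 755, 501 and 794 CPM, a fall of −0.59 and a rise of 0.66, in the order of Ibsp. Axin2, a target of Wnt signalling, rose with UAC from 2.55 to 7.19 CPM, and Wnt5a fell from 7.10 to 3.85. Fgfr3, a receptor of cartilage and bone, rose with miR-330 from 7.69 to 29.2. Fgfr2 was at 172, 245 and 289, and Igf1r at 180.2, 234 and 266.

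The genes most like the set were found by correlation. Over the 52 clusters of the 3 libraries, Pearson's r of log2(CPM + 1) with the mean of the 9 genes was highest for Ddr2, a collagen receptor of osteoblasts (0.97), Col25a1 (0.97), Pla2g5 (0.97), Irx5 (0.97) and Epha4 (0.97). Clusters of 1 library share its depth and free RNA, and 3 clusters carry most of the signal, so r is a description. Of the 9 genes themselves Ifitm5 was nearest to the mean (0.96) and Runx2 farthest (0.68), after Phex (0.79), Mepe (0.81) and Alpl (0.83). Each of these 9 is part of the mean, so their r cannot be set beside those of the other genes.

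Likeness of the 2 ratios in the osteochondral cluster was taken over 662 genes with at least 100 UMIs there and at least 80% of their UMIs in it. The nearest to Bglap were Chad, Car11, Tspan6, Efna1 and Nbl1, at distances of 0.04 to 0.07. Chad, chondroadherin of cartilage and a chondrocyte marker here, was at 224, 238 and 178 CPM, with ratios of 0.09 and −0.42. The nearest to Dmp1 were Pawr, C1s, NEWGENE_1308171, Tagln and Lmo1, at distances of 0.12 to 0.25. Pawr was at 8.43, 17.6 and 9.52 CPM and Tagln, an actin-binding protein of smooth muscle and myofibroblasts, at 15.3, 41.1 and 22.3.

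Runx2 and Bglap are shown with their promoters because Bglap is a classic target of Runx2 and their ratios with miR-330 in the osteochondral cluster had opposite signs. RefSeq promoters (GRCr8) were found for 7 of the 9 genes, and Sp7 and Phex had no entry. The Runx motif AACCACA was searched on both strands in the 250 bases before each start, and 4.59% of 33469 promoters hold it. It was in the promoter of Bglap, 119 bases before the start, and in 1 of the 2 Runx2 promoters, 77 bases before the start, and these letters were not in the windows of Alpl, Ibsp, Ifitm5, Dmp1 and Mepe. The letters TATAAA, held by 12.9% of promoters, were in those of Bglap and Ibsp, 15 and 39 bases before the start. Both stretches follow 5′ to 3′ with these motifs in capitals, Bglap on chr2:176137319-176137568 (minus strand) and Runx2 on chr9:23664808-23665057 (plus strand). A match is a description of letters and shows no binding.
Bglap: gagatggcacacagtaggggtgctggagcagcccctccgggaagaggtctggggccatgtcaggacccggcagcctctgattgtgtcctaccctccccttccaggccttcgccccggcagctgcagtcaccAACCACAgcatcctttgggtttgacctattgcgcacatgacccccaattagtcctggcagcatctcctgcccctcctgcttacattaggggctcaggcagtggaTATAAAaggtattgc
Runx2: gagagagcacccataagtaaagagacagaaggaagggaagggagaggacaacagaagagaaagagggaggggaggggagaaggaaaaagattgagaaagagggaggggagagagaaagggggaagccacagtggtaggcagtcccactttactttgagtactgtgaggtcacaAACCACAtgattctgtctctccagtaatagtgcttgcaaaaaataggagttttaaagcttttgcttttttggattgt

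The agent of the third library, miR-330, has 2 mature strands in the rat, and the labels do not say which one the AAV was built to raise. They are shown from RefSeq (GRCr8, chr1:87961227-87961248 and chr1:87961266-87961288, plus strand) with the seed, bases 2 to 8, in capitals. The seeds differ, so the strands are read as separate families. Levels of miR-330 were not measured by these libraries, which count polyadenylated RNA.
rno-miR-330-5p: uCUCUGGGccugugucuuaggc
rno-miR-330-3p: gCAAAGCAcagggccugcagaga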

How the data were processed

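Single-cell RNA of 3 pooled libraries (10x Genomics 3′ v3.1) was analysed, 1 per group. The submitters' processing notes name Cell Ranger 7.0, STAR and Seurat 4.0.1, and list the human and mouse builds GRCh38 and mm10, which are not rat builds, so the build of the tables is not given in the sources used here. The authors deposited, for each library, the mean count of each gene in each cluster, a normalized signal, with log2 fold changes and adjusted p-values between clusters, which were not used. Each deposited signal divided by the smallest positive value of its column gave UMIs, and 100% of values came out whole within 0.01. A count test on the recovered UMIs was not possible with 1 library per group. UMIs of identifiers that share a name were added (101, 106 and 116 names). The osteochondral cluster is the one with the highest chondrocyte marker level. Doublets were not treated and free RNA was not subtracted.

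Genes named are the 9 genes, from each list up to 3 with the most UMIs and the largest rise and fall in the osteochondral cluster, and the likeness genes. Marker genes beyond these, Phospho1, Lef1, Tcf7 and the clusters described were chosen after values were seen. So were the motifs, the B marker floor, the mixed cluster threshold (first defined by rank, then by level) and 2 alternatives. Members and lists were chosen with earlier results of these data known. Alternatives were other scales, a fold of 2, minimum 10 UMIs and 5 added UMIs. Calls were tested on simulated data, which carry counting error only. Genes set well past the fold were called there, and some unchanged genes were called too. Python 3.11.15, pandas 2.3.3, numpy 2.4.6 and SciPy 1.17.1 were used.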

Additional observations from a re-analysis of the deposited data

How the results depend on the processing

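Values are log2 ratios of the summed level or counts of the 9 genes. No replicates exist, so the intervals leave out the spread between rats.

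The deposited mean counts shift the ratio of every gene alike. On them the sum over all clusters was −0.61 with UAC and 0.039 with miR-330, which reverses −0.20. In the osteochondral cluster it was 0.19 and 0.088, the latter reversing −0.15, 1 gene was lower with UAC (0.74% of all genes), and over all clusters 5 were higher with miR-330 (28.3%). Centred on the median the sums were −0.78 and −0.33 over all clusters and −0.14 and −0.16 in the cluster, with 2 genes lower with miR-330 over all clusters (6.03% of all genes). Without mitochondrial, ribosomal, haemoglobin, immunoglobulin, S100a8 and S100a9 entries the sums with miR-330 were −0.24 and −0.17. Without Bglap they were −0.85 and 0.59 over all clusters and −0.29 and 0.77 in the cluster, and as the median of the 9 ratios −0.73, 0.42, 0.050 and 0.67, so with miR-330 both reversed.

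At a fold of 2, a stricter threshold by construction, 3 genes were lower with UAC and 0 higher with miR-330 over all clusters, and in the cluster 0 were lower with UAC, and 2 higher and 0 lower with miR-330. Of all genes 1.92% were lower with UAC and 2.41% higher with miR-330 over all clusters, and in the cluster 0.41% were lower with UAC, and 1.94% higher and 2.52% lower with miR-330.

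Outside the osteochondral cluster 2 were higher and 2 lower with UAC, and 1 higher and 0 lower with miR-330, of 5 genes with enough UMIs at 1.5-fold. Of all genes there 7.73% were higher and 3.07% lower with UAC, and 12.0% and 3.41% with miR-330. Adding 5 UMIs left 2 genes lower in the cluster with UAC, without Phex (1.03% of all genes).

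The remaining alternatives were chosen after seeing the data. Per UMIs of other osteogenic markers, mostly Col1a1, the cluster sums were 0.24 and −0.16, with 0 genes lower with UAC (0.64% of all genes). With the mixed clusters added, which enlarges the total of sham and UAC + miR-330 and not that of UAC, they were 0.21 and −0.67, 0 genes were lower with UAC (3.80% of all genes), and 1 was higher and 2 lower with miR-330 (9.32% and 15.8%). Only Phex stayed higher, Bglap and Dmp1 were lower, and 37.0% of all called genes were higher rather than 51.4%. Of 144 recomputed ratios of single genes 43 left their counting interval and none that had passed the fold changed sign. In the cluster with miR-330 Mepe and Ifitm5, under the fold at 0.36 and 0.12, were −0.21 and −0.41 with the mixed clusters. Depth limits Sp7, Phex and Mepe, with under 100 UMIs in each library's cluster.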
